A study of Mus musculus with 9 samples.

Results

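Interferon-stimulated genes are the genes that cells switch on when interferons, the secreted alarm proteins of antiviral defence, bind their receptors. The 45 mouse genes described here are a list of gene symbols, found in the expression table through their Ensembl gene identifiers. They were not picked by a threshold on these values, but were chosen with earlier results of these data known. The shares of members set beside those of all genes are therefore not independent of that choice. A row was found for 44 of the 45, out of 21930 identifiers in the table, and Mx2 was not analysed here. By role, the members comprise sensors of viral nucleic acid, transcription factors, the ISG15 conjugation system, the OAS and IFIT families, other antiviral effectors, PARP, TRIM and nuclear body proteins, and interferon-inducible GTPases.

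The libraries are poly(A) RNA sequencing of nasal mucosal tissue from wild-type mice in 3 groups of 3. The eCRS_Exo libraries came from mice given papain, a plant cysteine protease, into the nose (20 µg in 20 µl of PBS on days 0 to 2 and again on days 7 to 11) together with MSC-Exos, exosomes of mesenchymal stem cells, by the same route on days 7 to 11. The eCRS libraries came from mice given papain alone as a model of eosinophilic chronic rhinosinusitis, with PBS as the alternative to MSC-Exos in the protocol. The control libraries are labelled with no treatment, and the protocol gives day 12 as the day the mice were killed. The labels give no strain, sex or age, no dose of exosomes, and do not say if the libraries of a group are different mice. The p-values therefore reflect how far these libraries vary, and part of that variation may be technical.

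Interferons of type I (alpha, beta and relatives) and type III (lambda) signal through receptor kinases to a complex that includes Stat2 and Irf9, which enters the nucleus and binds the interferon-stimulated response element in the promoters of these genes. Interferon gamma, the type II interferon, acts at a different element. In the airway lining both epithelium and leukocytes can respond, and the products block viral RNA at many steps, from sensing it to stopping its translation and its release from the cell.

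The deposited unit is FPKM, which sets a gene's fragments against its transcript length and against the total of the library. The libraries differed in scale, and the share taken by a few abundant genes differed with it. The 15 most abundant genes took 16% to 34.2% of the signal in eCRS_Exo libraries, 34.1% to 51.4% in eCRS libraries and 49.7% to 52.5% in control libraries. The eCRS library at 51.4% was library 2, which lay among the controls, and the eCRS_Exo library at 34.2% was library 3, which lay at the lower edge of the eCRS libraries. Each comparison is therefore given on the deposited values and on scaled FPKM, for which every library was brought to a common level by median-of-ratios size factors. The scale factors were 1.18 to 1.75 in eCRS_Exo, 0.710 to 1.07 in eCRS and 0.763 to 0.765 in control libraries. The median log2 change of all genes tested was 0.56 for eCRS_Exo against eCRS, 0.76 for eCRS_Exo against control and 0.19 for eCRS against control as deposited, and -0.00587, 0.00915 and -0.00399 after scaling. Depth was roughly 15.6 to 25.5 M fragments (M, mega) per library, read from low values in a window set by hand. That window bounds the depths that could be found, so the range is a rough reading and not an independent measurement. Changes are differences of log2(FPKM + 1) from limma with Benjamini-Hochberg adjustment over all genes tested, a scale that understates the change of low genes, and a gene is called at an adjusted p under 0.05.

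The comparison of eCRS_Exo with eCRS asks what differs when exosomes are added to the papain model. Many interferon-stimulated genes were higher in eCRS_Exo than in eCRS libraries, and no member passed the test as lower. On the scaled values 19 of 43 tested members rose (44.2%), against 13.4% of all genes tested, and 0 fell, against 16.2% of all genes. The median change of the members was 0.35 on the log2 scale, and 22 members had all 3 eCRS_Exo libraries above all 3 eCRS libraries, which held for 21.1% of all genes. The reverse held for 1 member (Ifi27l2a), which was also lower at an unadjusted p under 0.05, and for 23.8% of all genes. On the deposited values 41 of 43 members rose, but so did 63% of all genes, and 0 fell, against 0.73%. The median change as deposited was 0.95 for members. As deposited 39 members had every eCRS_Exo library above every eCRS library, against 57.5% of all genes, and 0 had them all below, against 0.816%. All 19 members that rose after scaling also rose as deposited.

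Of the 19, 9 were Lgals3bp, Oasl2, Isg15, Ifit3b, Ifit3, Usp18, Ifi44, Irf7 and Ifit1. The calls of these 9 held under each alternative setting in which they were tested, a fold threshold aside. The calls of Dhx58, Irf9, Uba7, Trim25, Oas1a, Rtp4, Xaf1, Parp14, Gbp3 and Igtp were lost in 1 or more settings, all 10 of them without eCRS_Exo library 1, with highest adjusted p values between 0.0517 for Trim25 and 0.133 for Rtp4. The count of 19 was 9 without eCRS_Exo library 1, 10 without eCRS_Exo library 2 and 11 without eCRS library 3. A threshold of 1 on the absolute log2 change left 3 members.

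Against control, most of the list was higher in eCRS_Exo libraries. On the scaled values 36 of 43 members rose (83.7%), against 12.3% of all genes, and 0 fell, against 15.6%. The median change was 0.69, and 40 members had all eCRS_Exo libraries above all control libraries, against 23% of all genes. No member had them all below, against 23.9% of all genes. As deposited 42 members rose, against 84.3% of all genes, and 0 fell, against 0.526%. As deposited 42 members had all eCRS_Exo libraries above all control libraries, against 87.5% of all genes, and 0 had them all below, against 0.589%. The 7 members that did not pass after scaling were Ddx58, Ifit2, Cmpk2, Eif2ak2, Samd9l, Ifi27l2a and Sp100. At an unadjusted p under 0.05, 0 members were lower in eCRS_Exo than in control.

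In the comparison of papain alone with control, fewer members passed. On the scaled values 13 of 43 members rose in eCRS against control (30.2%), against 5.77% of all genes, and 0 fell, against 4.15% of all genes. The median change was 0.40, and 25 members had all eCRS libraries above all control libraries, against 15.8% of all genes. The reverse held for 1 member (Ifit2) and 14.7% of all genes. As deposited 6 members rose (Zbp1, Usp18, Oas2, Oasl2, Lgals3bp and Irgm1), against 3.01% of all genes, and 0 fell, against 0.518%. As deposited 38 members had all eCRS libraries above all control libraries, against 20.7% of all genes, and 0 had them all below, against 2.42%. At an unadjusted p under 0.05, 0 members were lower on the scaled values and 0 as deposited. The scaled count was 5 without control library 3 and 8 without eCRS library 3, and the deposited count was 2 without control library 1, 3 without control library 2, 2 without control library 3, 18 without eCRS library 2, 3 without eCRS library 3 and 22 without eCRS_Exo library 3. Lgals3bp and Irgm1 were called on both scales in each alternative in which they were tested, a fold threshold aside, which the scaled change of Irgm1 (0.85) did not reach. The 3 comparisons share libraries, so their counts are not independent, and the differences between the comparisons' changes were not tested.

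In the accounts by role that follow, counts are on the scaled values and read against the shares of all genes just given. As deposited, every tested member but Samd9l and Ifi27l2a rose in eCRS_Exo against eCRS, and every one but Ifit2 rose in eCRS_Exo against control.

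**Figure D1:**
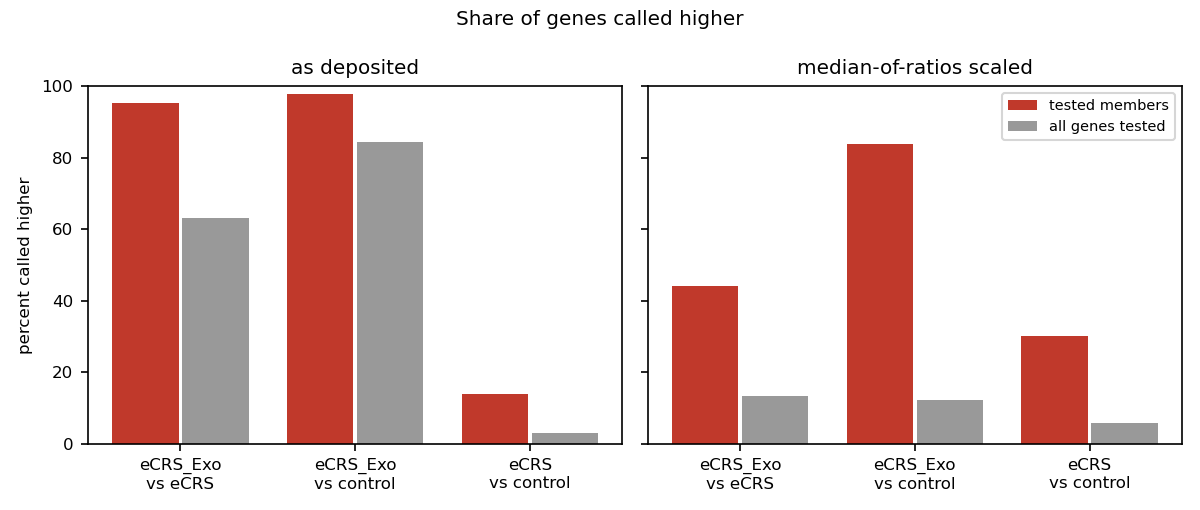
Percent of tested members (red) and of all genes tested (grey) called higher by limma at an adjusted p under 0.05, for the 3 comparisons, on values as deposited (left) and after median-of-ratios scaling (right). After scaling the members' bars stand at 44.2%, 83.7% and 30.2%, against 13.4%, 12.3% and 5.77% for all genes, while as deposited most genes were called higher in both eCRS_Exo comparisons.

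The filter on low values bears on these counts. A gene was tested if it reached 1 FPKM in at least 3 libraries. On the deposited values 4 members (Herc6, Oasl1, Rsad2 and Gbp7) passed through the eCRS_Exo libraries alone, and after scaling none did. The deposited calls of these 4 in the eCRS_Exo comparisons are therefore tied to the filter. After scaling 5 members (the same 4 and Oas2) passed with no control library at 1 FPKM. Among the 38 members with a control library at 1 FPKM, 19 rose in eCRS_Exo against eCRS, 31 in eCRS_Exo against control and 12 in eCRS against control. As deposited 7 members passed with no control library at 1 FPKM, the same 5 with Igtp and Ifi47. Among the other 36, 34 rose in eCRS_Exo against eCRS, 35 in eCRS_Exo against control and 5 in eCRS against control. The deposited shares of all genes were 63%, 84.3% and 3.01%.

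By library, the median member of eCRS_Exo libraries 1, 2 and 3 stood 0.76, 0.83 and 0.54 above the control mean on the scaled log2 values. In eCRS libraries 1, 2 and 3 it stood 0.25, 0.51 and 0.32 above the control mean, and in control libraries it lay between -0.03 and 0.05. The eCRS_Exo libraries were thus all above the eCRS libraries, though eCRS_Exo library 3 and eCRS library 2 were only a small step apart. Library 3 was the lowest of the eCRS_Exo libraries for 31 of 43 members after scaling and for 41 as deposited. Library 2 was the highest of the eCRS libraries for 34 members after scaling, and for 4 as deposited.

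**Figure D2:**
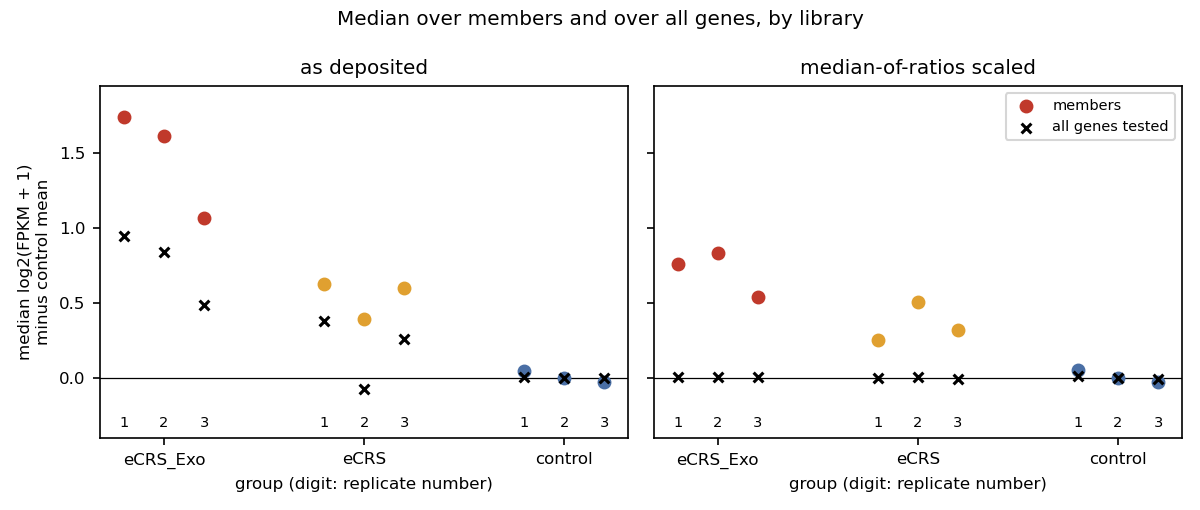
Median over the 43 tested members (coloured points) and over all genes tested (crosses) of log2(FPKM + 1) minus the control mean, for each library by replicate number, as deposited (left) and scaled (right). As deposited the crosses rise with the members, to 0.95 in eCRS_Exo library 1, and after scaling they lie at 0 while the members' medians stand at 0.54 to 0.83 in eCRS_Exo and 0.25 to 0.51 in eCRS libraries.

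The ISG15 conjugation system was among the clearest groups. Isg15 encodes a ubiquitin-like protein that is attached to newly made proteins and is also secreted, Uba7 is its activating enzyme, Herc6 its main ligase in the mouse, Trim25 a ubiquitin ligase that also acts on the RNA sensor RIG-I, and Usp18 removes Isg15 and dampens signalling at the interferon receptor. After scaling 4 of these 5 rose in eCRS_Exo against eCRS, 5 against control, and 2 rose in eCRS against control. Isg15 had 16.8, 16.7 and 14.0 scaled FPKM in eCRS_Exo libraries, 6.60, 9.41 and 6.34 in eCRS libraries and 4.51, 5.82 and 5.59 in control libraries. Its 3 groups did not overlap. Its change was 1.01 ± 0.14 (SE) in eCRS_Exo against eCRS (adjusted p = 0.00309), 1.42 against control (adjusted p = 6.43e-04), and 0.41 in eCRS against control, which did not pass (adjusted p = 0.104).

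Usp18 was at 16.4, 15.4 and 15.8 scaled FPKM in eCRS_Exo libraries, against 8.04, 11.8 and 10.1 in eCRS libraries and 6.87, 5.98 and 6.27 in control libraries. It was the most even member of this system within the eCRS_Exo group, and its groups did not overlap either. It rose in all 3 comparisons, by 0.64 ± 0.12 in eCRS_Exo against eCRS (adjusted p = 0.00598), 1.19 in eCRS_Exo against control and 0.56 in eCRS against control (adjusted p = 0.0161). Trim25 rose in all 3 as well, with 5.76, 5.38 and 5.06 scaled FPKM in eCRS_Exo libraries, 3.94, 4.25 and 3.83 in eCRS libraries and 3.25, 3.01 and 2.74 in control libraries. Uba7 rose in both eCRS_Exo comparisons, by 0.43 and 0.71. Herc6, at 1.01 to 1.34 scaled FPKM in eCRS_Exo libraries, had 0.63 to 1.03 in eCRS and 0.666 to 0.694 in control libraries, and passed after scaling in eCRS_Exo against control (0.39, adjusted p = 0.0292; 0.0759 at its highest over the alternatives, lost without any 1 of the control libraries and after quantile normalization).

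The promoter of Isg15 is shown because it holds the element that the interferon complex reads, searched here on both strands as GAAA, any 2 bases, and GAAA again. RefSeq promoters of GRCm38.p6 (250 bases before to 50 after the start site) were found for 36 of the 45 members. The motif was in the promoters of 18 of these 36 members (50%), and in those of 3.99% of all genes with a promoter entry. Below are the bases before the start site and outside the annotated transcript, with the motif in capitals, for Isg15 (chr4:156200819-156201068, minus strand), whose 3 matches overlap and begin 78, 72 and 66 bases before the start site.
Isg15: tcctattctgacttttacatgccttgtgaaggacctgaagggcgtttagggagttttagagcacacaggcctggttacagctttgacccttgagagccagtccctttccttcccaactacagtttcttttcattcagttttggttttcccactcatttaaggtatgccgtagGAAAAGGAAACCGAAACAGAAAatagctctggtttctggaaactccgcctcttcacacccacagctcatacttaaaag

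The IFIT proteins bind viral RNA and block its translation, and in the mouse they are encoded side by side on chromosome 19 (34550694 to 34650009, GRCm38, GENCODE M21). Ifit1, Ifit3 and Ifit3b rose in eCRS_Exo against eCRS on either scale, and their scaled eCRS libraries overlapped the control libraries. After scaling 3 of 4 rose in eCRS_Exo against eCRS, 3 against control, and 0 in eCRS against control. Ifit3 had 16.6, 16.3 and 12.7 scaled FPKM in eCRS_Exo libraries, against 6.30, 9.23 and 6.15 in eCRS libraries and 8.38, 6.85 and 6.08 in control libraries. All eCRS_Exo libraries lay above both other groups, which overlapped each other. The change was 0.99 ± 0.16 against eCRS (adjusted p = 0.00440) and 1.0 against control, and in eCRS against control it was 0.01 (adjusted p = 0.974).

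Ifit3b had 4.84, 5.08 and 4.30 scaled FPKM in eCRS_Exo libraries, 2.00, 3.03 and 1.88 in eCRS libraries and 2.24, 1.98 and 2.35 in control libraries. Ifit1 had 14.2, 16.8 and 12.8 in eCRS_Exo libraries, 10.1, 8.73 and 5.96 in eCRS libraries and 9.89, 8.31 and 8.07 in control libraries. Both had eCRS_Exo libraries above all others, with changes against eCRS of 0.81 ± 0.13 (adjusted p = 0.00387) and 0.77 ± 0.17 (adjusted p = 0.0104). Their changes in eCRS against control were 0.04 and -0.10 (adjusted p = 0.887 and 0.756). The call of Ifit1 in eCRS_Exo against control (0.67, adjusted p = 0.0177) was lost without control library 2 or 3 or eCRS_Exo library 1 or 2, with an adjusted p of 0.0626 at its highest.

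Ifit2 was the exception and the most variable member of the family. It had 2.57, 0.824 and 1.97 scaled FPKM in eCRS_Exo libraries, 1.63, 1.24 and 0.131 in eCRS libraries and 2.10, 1.78 and 1.94 in control libraries. The eCRS libraries all lay below the control libraries, and the eCRS_Exo libraries overlapped both. No scaled change passed (0.51, adjusted p = 0.242 in eCRS_Exo against eCRS; -0.64, adjusted p = 0.231 in eCRS against control). Ifit2 was chosen after its values were seen.

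Ifit3 and Ifit3b are close copies. Of the 50-base words of the longest Ifit3 transcript, 51.2% also occur in Ifit3b, so their separate levels are uncertain. Their promoters share an unbroken run of 169 bases that holds both of their motif matches, against 13 bases shared by Ifit3 and Ifit1. The promoters are those of the IFIT members that rose, Ifit3b (chr19:34607707-34607956), Ifit3 (chr19:34583279-34583528) and Ifit1 (chr19:34640639-34640870), all on the plus strand of GRCm38.p6 and from RefSeq. The capitals mark the same motif, here read on the opposite strand, and the matches begin 188 and 154 bases before the start site in Ifit3b, 156 and 122 in Ifit3, and 104 and 85 in Ifit1.
Ifit3b: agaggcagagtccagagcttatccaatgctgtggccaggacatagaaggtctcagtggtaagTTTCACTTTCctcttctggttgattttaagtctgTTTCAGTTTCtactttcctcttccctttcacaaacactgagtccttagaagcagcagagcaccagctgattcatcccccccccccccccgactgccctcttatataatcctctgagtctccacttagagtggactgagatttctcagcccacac
Ifit3: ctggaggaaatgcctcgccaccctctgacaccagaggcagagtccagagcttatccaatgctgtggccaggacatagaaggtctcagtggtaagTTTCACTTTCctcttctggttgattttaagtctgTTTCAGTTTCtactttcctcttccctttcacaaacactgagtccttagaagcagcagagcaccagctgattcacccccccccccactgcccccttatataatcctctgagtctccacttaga
Ifit1: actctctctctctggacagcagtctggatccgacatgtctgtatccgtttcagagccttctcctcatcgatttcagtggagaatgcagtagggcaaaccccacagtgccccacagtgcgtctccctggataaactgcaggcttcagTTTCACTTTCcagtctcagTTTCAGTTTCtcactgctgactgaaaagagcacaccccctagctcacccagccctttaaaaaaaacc

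The OAS family includes enzymes that, when they meet double-stranded RNA, make oligoadenylates that activate a ribonuclease. After scaling 2 of 4 tested OAS genes rose in eCRS_Exo against eCRS (Oas1a and Oasl2), 4 against control, and 2 in eCRS against control (Oas2 and Oasl2). Oasl2 had 20.5, 21.1 and 17.5 scaled FPKM in eCRS_Exo libraries, 8.89, 11.2 and 6.99 in eCRS libraries and 5.36, 5.42 and 4.72 in control libraries. The groups did not overlap, and its rise of 1.06 ± 0.14 in eCRS_Exo against eCRS (adjusted p = 0.00263) was the largest of any tested member after scaling. It was 1.74 higher in eCRS_Exo than in control (adjusted p = 2.98e-04) and 0.68 higher in eCRS than in control (adjusted p = 0.0161; 0.0693 without control library 3).

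Oas1a had 8.06, 7.65 and 5.63 scaled FPKM in eCRS_Exo libraries, 3.41, 5.23 and 3.21 in eCRS libraries and 2.64, 2.68 and 1.90 in control libraries, a change of 0.72 ± 0.17 in eCRS_Exo against eCRS (adjusted p = 0.0148). Its groups did not overlap, but 57.6% of its words are shared with Oas1g, so the level of Oas1a alone is uncertain. Oas2 differed in pattern, with 2.20, 1.88 and 1.87 in eCRS_Exo libraries, 1.73, 1.66 and 1.42 in eCRS libraries and 0.490, 0.743 and 0.600 in control libraries. It rose in eCRS against control by 0.69 ± 0.10 (adjusted p = 0.00252), while its 0.20 in eCRS_Exo against eCRS did not pass (adjusted p = 0.147). Oasl1, which in the mouse restrains the translation of Irf7, rose after scaling in eCRS_Exo against control (0.57, adjusted p = 0.0239; lost without control library 2 or 3, 0.0689 at its highest). Oas3 was under the filter, at 0.739, 0.770 and 0.675 scaled FPKM in eCRS_Exo libraries, 0.457, 0.275 and 0.296 in eCRS libraries and 0.164, 0.362 and 0.116 in control libraries.

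Among the transcription factors, Irf7, which amplifies the production of type I interferon, had the larger change. After scaling 2 of 3 rose in eCRS_Exo against eCRS (Irf7 and Irf9), 3 against control and 0 in eCRS against control. Irf7 had 16.8, 22.3 and 11.9 scaled FPKM in eCRS_Exo libraries, 7.93, 9.33 and 5.48 in eCRS libraries and 4.43, 3.84 and 4.21 in control libraries. It spread widely among the eCRS_Exo libraries, and the lowest of them, library 3, was above every eCRS library. Its change was 1.05 ± 0.21 against eCRS (adjusted p = 0.00801) and 1.76 against control (adjusted p = 0.00138), and 0.71 in eCRS against control (adjusted p = 0.0661).

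Irf9 and Stat2 belong to the complex that binds the response element. Irf9 had 14.7, 15.9 and 13.5 scaled FPKM in eCRS_Exo libraries, 9.37, 12.3 and 9.17 in eCRS libraries and 8.32, 7.11 and 5.61 in control libraries. Stat2 had 8.33, 8.26 and 8.42 in eCRS_Exo libraries, 5.88, 8.19 and 6.08 in eCRS libraries and 6.39, 5.76 and 5.12 in control libraries. The eCRS_Exo libraries lay above both other groups for both genes, with eCRS library 2 close below them for Stat2. Irf9 rose by 0.49 ± 0.14 against eCRS (adjusted p = 0.0295), and the 0.29 of Stat2 did not pass (adjusted p = 0.0869).

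Of the 4 sensors of viral nucleic acid, 1 (Dhx58) rose in eCRS_Exo against eCRS after scaling, against 13.4% of all genes, and all 4 rose as deposited, against 63%. After scaling Dhx58, Zbp1 and Ifih1 rose against control, and Dhx58 and Zbp1 rose in eCRS against control. Dhx58 encodes LGP2, a helicase that tunes the other cytosolic RNA sensors, and had 3.82, 3.86 and 2.96 scaled FPKM in eCRS_Exo libraries, 2.09, 2.88 and 2.05 in eCRS libraries and 1.51, 0.949 and 1.17 in control libraries. Zbp1, which senses nucleic acid in the Z form and can trigger cell death, had 5.42, 5.51 and 4.0 in eCRS_Exo libraries, 3.01, 4.29 and 2.85 in eCRS libraries and 1.38, 1.94 and 1.13 in control libraries. For Dhx58 the 3 groups did not overlap, and for Zbp1 the eCRS_Exo and eCRS libraries did. Zbp1 rose by 0.82 ± 0.16 in eCRS against control (adjusted p = 0.0140) and by 1.27 in eCRS_Exo against control, and its 0.45 between eCRS_Exo and eCRS did not pass (adjusted p = 0.0625).

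The RNA sensors RIG-I and MDA5 moved less. Ddx58, which encodes RIG-I, had 7.11, 6.82 and 6.27 scaled FPKM in eCRS_Exo libraries, 5.74, 6.28 and 4.48 in eCRS libraries and 4.54, 6.06 and 4.77 in control libraries, and no scaled change passed (0.26, adjusted p = 0.140 in eCRS_Exo against eCRS). Ifih1, which encodes MDA5, passed in eCRS_Exo against control (0.41, adjusted p = 0.0182; lost without control library 1 or 3 or eCRS_Exo library 2, 0.0608 at its highest).

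The other antiviral effectors, 12 of them tested, act at many steps. After scaling 4 rose in eCRS_Exo against eCRS (Lgals3bp, Ifi44, Rtp4 and Xaf1), 8 against control, and 2 in eCRS against control (Lgals3bp and Ifi44). Lgals3bp encodes a secreted glycoprotein that binds galectins. It had 94.7, 98.9 and 86.5 scaled FPKM in eCRS_Exo libraries, 48.0, 53.8 and 52.0 in eCRS libraries and 24.9, 23.5 and 26.1 in control libraries. The 3 groups were far apart and even within themselves. The change was 0.85 ± 0.08 in eCRS_Exo against eCRS (adjusted p = 0.00114), 1.87 in eCRS_Exo against control (adjusted p = 1.60e-05) and 1.02 in eCRS against control (adjusted p = 1.99e-04), the largest rise of any member in the last 2 of these.

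The promoter of Lgals3bp holds no match to that motif in its RefSeq entry of 300 bases, which says only that these letters are not in this window. It is shown for contrast with those above as the 117 bases before the annotated transcript (chr11:118402093-118402209, minus strand, GRCm38.p6).
Lgals3bp: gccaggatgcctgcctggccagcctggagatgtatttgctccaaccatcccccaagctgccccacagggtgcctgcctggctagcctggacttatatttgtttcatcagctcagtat

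Among members with it, 7 of 17 tested rose in eCRS_Exo against eCRS after scaling, with a median change of 0.34. Among members with a promoter entry but no match, 8 of 18 rose, with a median of 0.35. A second motif, TTCNNNGAA, the core of the element bound by Stat dimers, was in 7 of 36 member promoters (19.4%), against 9.55% of all genes. It reads the same on both strands, and a match is a description of the letters, not of binding.

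Ifi44 had 5.09, 5.45 and 3.96 scaled FPKM in eCRS_Exo libraries, 2.82, 3.0 and 2.77 in eCRS libraries and 1.92, 1.64 and 1.40 in control libraries. Its 3 groups did not overlap. It rose in all 3 comparisons, by 0.59 ± 0.11 in eCRS_Exo against eCRS (adjusted p = 0.00676) and by 0.54 in eCRS against control (adjusted p = 0.0156; lost without control library 2 or 3 or eCRS library 3, 0.0658 at its highest). Rtp4, a member of the receptor transporter family, had 13.8, 18.2 and 14.9 in eCRS_Exo libraries, 9.94, 13.9 and 9.78 in eCRS libraries and 8.07, 6.94 and 8.01 in control libraries, and was called in eCRS_Exo against eCRS (0.45, adjusted p = 0.0372) although those groups overlapped.

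Calls of several classical effectors depended on the scale. Rsad2 (viperin), Bst2 (tetherin, which holds budding virus at the cell surface), Ifi35 and Epsti1 rose in eCRS_Exo against control by 0.59, 0.92, 0.65 and 0.69 after scaling. Their scaled changes in eCRS_Exo against eCRS, 0.34, 0.45, 0.24 and 0.24, did not pass. As deposited all 4 rose in that comparison, by 0.78, 1.15, 0.91 and 0.79, and so did 63% of all genes. Rsad2 passed the deposited filter through the eCRS_Exo libraries alone, so its deposited call is tied to the filter. Eif2ak2, the kinase PKR that halts translation, Cmpk2 and Samd9l passed in no scaled comparison, with changes of 0.21, 0.26 and -0.20 in eCRS_Exo against eCRS. As deposited Eif2ak2 and Cmpk2 rose in that comparison, by 0.79 and 0.85. All 3 rose as deposited in eCRS_Exo against control, and so did 84.3% of all genes.

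Ifi27l2a, a small hydrophobic protein of membranes, was by far the most abundant member per length and went its own way. It had 341, 455 and 558 scaled FPKM in eCRS_Exo libraries, 566, 1080.1 and 657 in eCRS libraries and 725, 510 and 591 in control libraries. All eCRS_Exo libraries lay below all eCRS libraries, by a small step, and overlapped the controls. Its change in eCRS_Exo against eCRS did not pass and depended on the scaling, at -0.74 scaled (adjusted p = 0.0605), -0.02 as deposited, -0.06 after quantile normalization and 0.36 after rescaling to a common sum. It was called lower without eCRS library 1 or without eCRS_Exo library 3, at adjusted p = 0.0340 and 0.0355 in a range of 0.0340 to 0.810 over the scaled alternatives. Ifi27l2a was chosen after its values were seen.

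**Figure D3:**
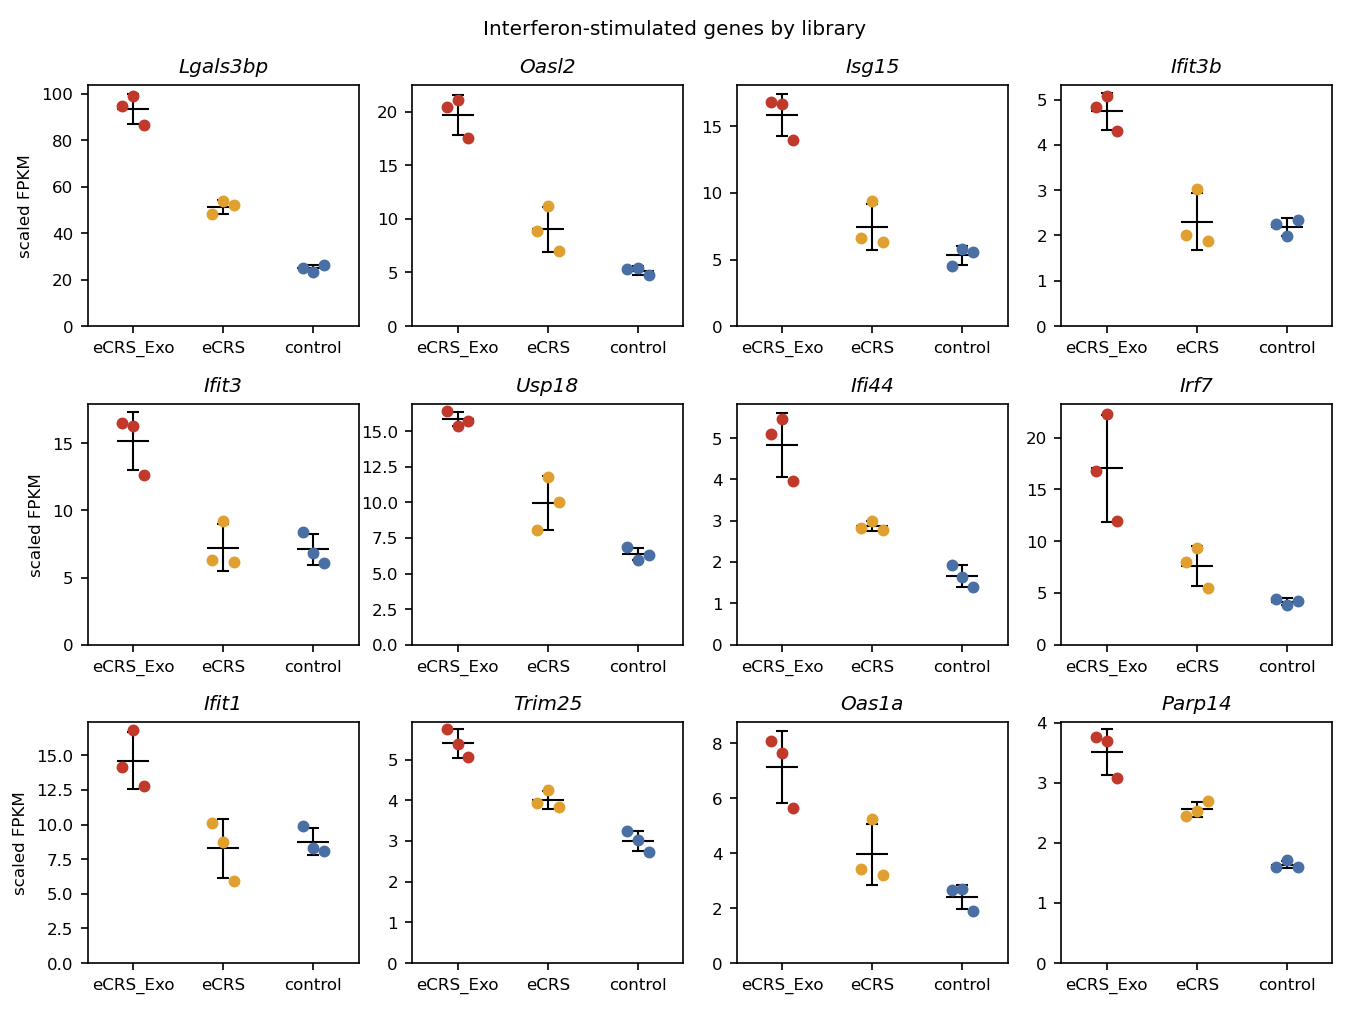
Scaled FPKM of 12 members in each of the 9 libraries (points, in replicate order), with the group mean and SD (bars, n = 3), for eCRS_Exo (red), eCRS (orange) and control (blue); each axis is linear and starts at 0. The 12 were picked by the smallest p in eCRS_Exo against eCRS after scaling, so their separation follows largely from that choice. In all 12 panels every eCRS_Exo library lies above every eCRS library, while for Ifit1, Ifit3 and Ifit3b the eCRS and control libraries overlap. Of all 43 tested members, 22 had this separation of eCRS_Exo from eCRS, and 1 (Ifi27l2a) had the reverse.

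The PARP and TRIM proteins and Sp100 act in the nucleus and cytoplasm on chromatin, ubiquitin and ADP-ribose. After scaling 1 of 5 rose in eCRS_Exo against eCRS (Parp14), 4 against control and 3 in eCRS against control (Parp9, Parp14 and Dtx3l). Parp14, an ADP-ribosyltransferase, had 3.76, 3.69 and 3.07 scaled FPKM in eCRS_Exo libraries, 2.45, 2.53 and 2.69 in eCRS libraries and 1.60, 1.71 and 1.59 in control libraries. Its groups were separate, with rises of 0.34 ± 0.08 in eCRS_Exo against eCRS (adjusted p = 0.0158) and 0.43 in eCRS against control (adjusted p = 0.0120).

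Parp9 and Dtx3l encode the subunits of a ubiquitin ligase and are divergent neighbours on chromosome 16. Parp9 had 7.67, 8.42 and 8.08 scaled FPKM in eCRS_Exo libraries, 7.59, 9.30 and 8.27 in eCRS libraries and 6.29, 5.93 and 6.01 in control libraries. Dtx3l had 3.59, 3.30 and 3.14 in eCRS_Exo libraries, 2.58, 2.60 and 2.97 in eCRS libraries and 1.84, 1.55 and 1.23 in control libraries. The eCRS libraries of Parp9 already stood at the eCRS_Exo level, and its change between those groups was -0.05 (adjusted p = 0.687; 0.60 and called as deposited). In eCRS against control Parp9 rose by 0.40 ± 0.08 (adjusted p = 0.0146) and Dtx3l by 0.55 ± 0.10 (adjusted p = 0.00912). Their exons overlap by 458 bases on opposite strands, and the strand setting of the counting is not given in the sources used here, so reads in the overlap cannot be assigned. Sp100, which forms nuclear bodies with Pml, had 8.83, 7.81 and 8.20 in eCRS_Exo libraries, 5.65, 8.20 and 5.98 in eCRS libraries and 6.17, 6.82 and 6.18 in control libraries, and passed in no scaled comparison.

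The interferon-inducible GTPases attack the vacuoles of intracellular pathogens and respond strongly to interferon gamma. After scaling 2 of 6 rose in eCRS_Exo against eCRS (Gbp3 and Igtp), all 6 against control, and 2 in eCRS against control (Irgm1 and Ifi47). Irgm1, which regulates autophagy and the other GTPases of its family, had 9.90, 9.29 and 9.16 scaled FPKM in eCRS_Exo libraries, 7.58, 9.25 and 7.07 in eCRS libraries and 4.61, 3.58 and 3.77 in control libraries. The control libraries were well below both papain groups, which overlapped. Irgm1 rose by 0.85 ± 0.11 in eCRS against control (adjusted p = 0.00164), and its 0.23 in eCRS_Exo against eCRS did not pass (adjusted p = 0.138).

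Ifi47 was alike, with 2.40, 2.69 and 1.70 scaled FPKM in eCRS_Exo libraries, 1.86, 2.41 and 1.96 in eCRS libraries and 0.892, 1.23 and 1.0 in control libraries. Gbp3 showed the other pattern, with 4.48, 3.94 and 2.57 in eCRS_Exo libraries, 1.74, 2.40 and 2.19 in eCRS libraries and 1.71, 2.05 and 1.29 in control libraries. Igtp had 2.68, 3.07 and 1.76 in eCRS_Exo libraries, 1.40, 1.65 and 1.38 in eCRS libraries and 1.11, 0.961 and 1.19 in control libraries. For Gbp3 and Igtp the eCRS_Exo libraries lay above all others, library 3 by little, and the changes against eCRS were 0.57 ± 0.17 (adjusted p = 0.0308) and 0.48 ± 0.14 (adjusted p = 0.0261). Igtp shares 12.3% of its words with Irgm2 and overlaps its exons by 162 bases, and Gbp7, at 1.24 to 1.55 scaled FPKM in eCRS_Exo, 0.871 to 1.24 in eCRS and 0.489 to 0.743 in control libraries, shares 12.9% of its words with other transcripts, so these levels carry some uncertainty.

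Set side by side, the scaled calls fell into 5 patterns. In 7 members (Dhx58, Usp18, Trim25, Oasl2, Ifi44, Lgals3bp and Parp14) the call was higher in all 3 comparisons. In 12 (Irf7, Irf9, Isg15, Uba7, Oas1a, Ifit1, Ifit3, Ifit3b, Rtp4, Xaf1, Gbp3 and Igtp) it was higher in eCRS_Exo against both eCRS and control and not in eCRS against control. In 6 (Zbp1, Oas2, Parp9, Dtx3l, Irgm1 and Ifi47) eCRS_Exo and eCRS were each higher than control with no call between them. A further 11 (Ifih1, Stat2, Herc6, Oasl1, Rsad2, Bst2, Ifi35, Epsti1, Trim30a, Gbp2 and Gbp7) were called in eCRS_Exo against control only, and the remaining 7 in none. A call on one side of the threshold and not on the other does not show that the changes differ.

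**Figure D4:**
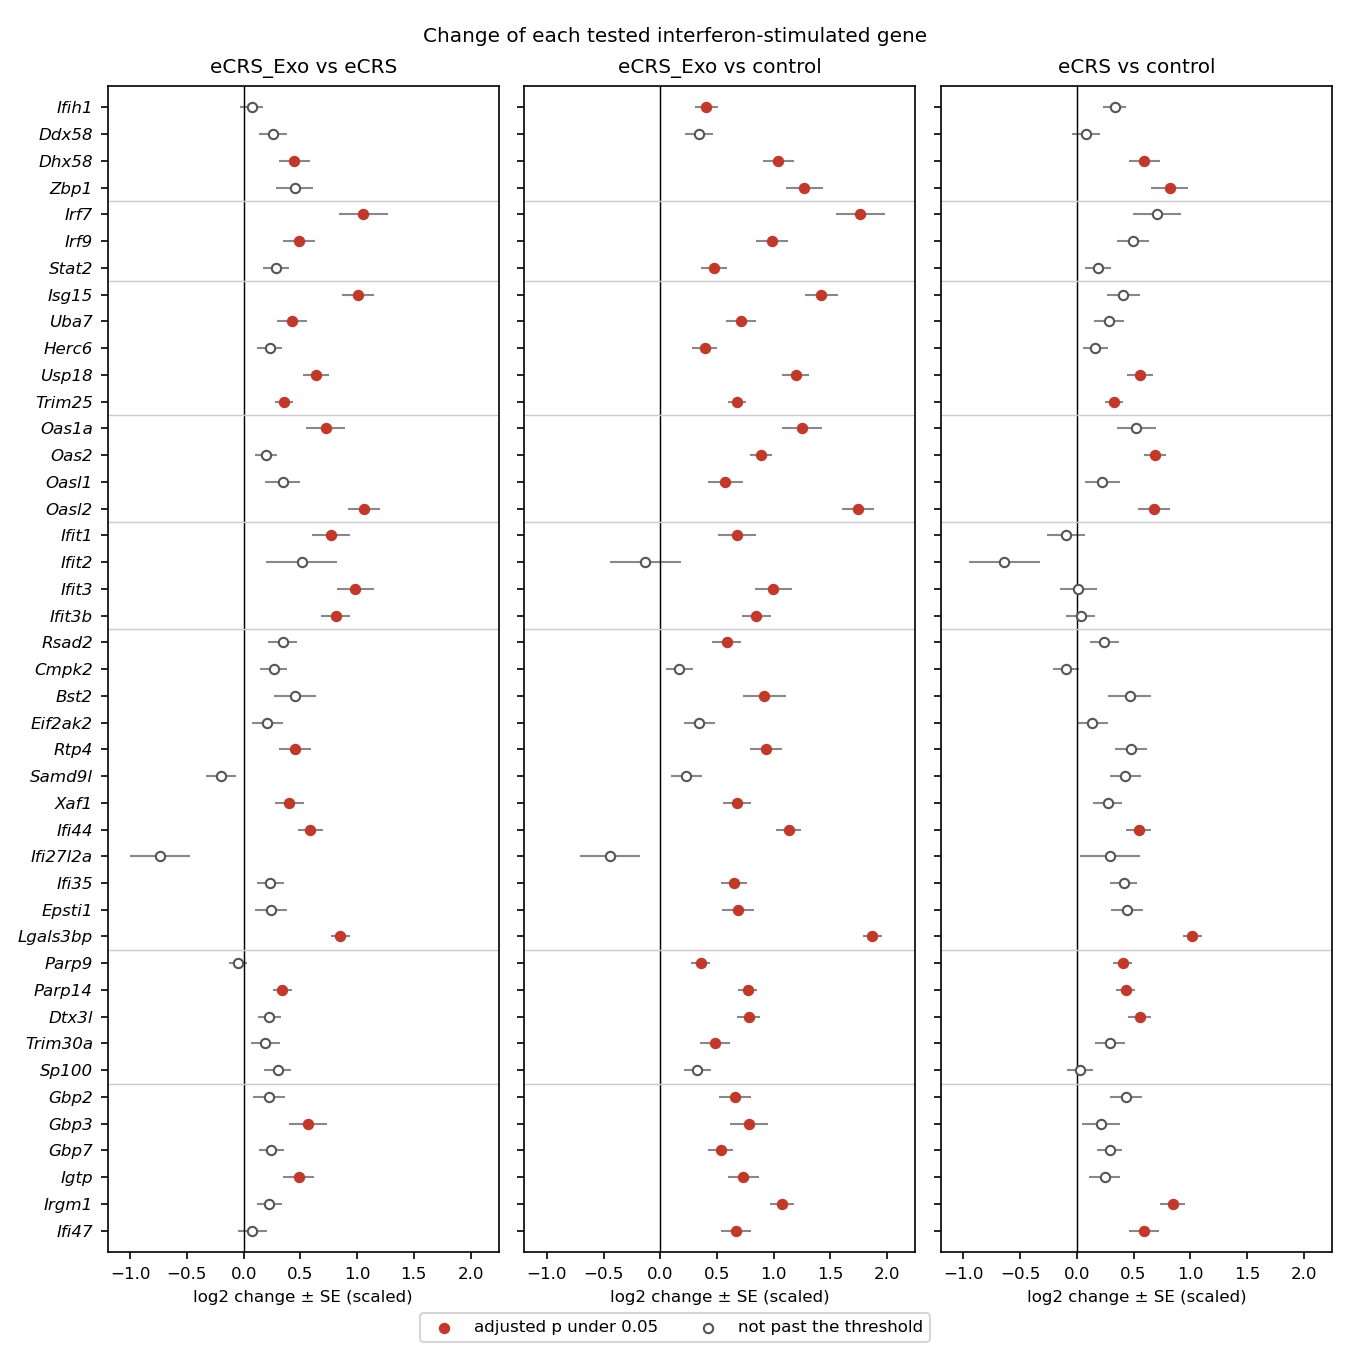
Change on the scaled log2(FPKM + 1) scale (points) with its SE (lines) for each of the 43 tested members, ordered by role with grey lines between roles, in eCRS_Exo against eCRS (left), eCRS_Exo against control (middle) and eCRS against control (right); filled points passed an adjusted p of 0.05. Filled points number 19, 36 and 13 and all lie to the right of 0, Ifi27l2a lies furthest left among the eCRS_Exo comparisons, and Ifit2 furthest left in eCRS against control.

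The interferons themselves were not seen at a level that could be tested. Of 11 ligand genes with a row, 0 passed the filter, and Ifnb1, Ifna1, Ifna2, Ifna4, Ifna5, Ifnl2 and Ifnl3 were listed at 0 in all libraries. The highest was Ifne, an epithelial interferon, with 0.417, 0.338 and 0.485 scaled FPKM in eCRS_Exo libraries, 0, 0.820 and 0 in eCRS libraries and 0.0655, 0.649 and 0 in control libraries. Ifng was at 0.0410 in eCRS_Exo library 2, and at 0.0346 and 0.0418 in eCRS libraries 1 and 2, and was listed at 0 in the other libraries.

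After scaling 0 of 6 receptor genes rose and 1 fell in eCRS_Exo against eCRS, against 13.4% and 16.2% of all genes, so the share lower was near the background. As deposited 4 of 6 rose and 0 fell, against 63% and 0.73%. The gene that fell was Ifngr1, a chain of the interferon gamma receptor, at 8.57, 9.04 and 8.45 scaled FPKM in eCRS_Exo libraries, 12.2, 13.7 and 11.3 in eCRS libraries and 10.3, 11.3 and 12.6 in control libraries (-0.46, adjusted p = 0.00767 scaled; 0.19, adjusted p = 0.373 as deposited). Its partner Ifngr2 rose in eCRS against control (0.94, adjusted p = 5.41e-04).

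Stat3 and Jak2 were lower in eCRS_Exo than in eCRS on the scaled values. They were 2 of 7 tested receptor kinases and signal carriers, and 16.2% of all genes were lower. Stat3, which carries signals of some interleukins, had 13.5, 11.9 and 12.5 scaled FPKM in eCRS_Exo and 19.3, 17.2 and 18.8 in eCRS libraries. In control libraries it had 11.5, 11.5 and 9.48. The eCRS libraries stood above both other groups. Stat3 fell in eCRS_Exo against eCRS by 0.51 and Jak2 by 0.42 on the scaled log2 values, while as deposited their changes were 0.16 and 0.23 and did not pass. Of 5 tested inhibitors of interferon signalling, 0 rose and 2 fell after scaling, against 13.4% and 16.2% of all genes. As deposited 3 of the 5 rose and 0 fell, against 63% and 0.73% of all genes. Socs3 and Ptpn2 fell by 1.05 and 0.78 after scaling, and changed by -0.45 and -0.14 as deposited, which did not pass. Of 10 tested inducers upstream of interferon, 1 rose (Traf3, 0.46) and 2 fell after scaling (Tmem173, which encodes the DNA-sensing adaptor STING, by 0.93 and Myd88 by 0.36). The shares of the inducers are near those of all genes (13.4% higher and 16.2% lower). As deposited 6 of 10 rose and 0 fell, against 63% and 0.73% of all genes, and the changes of Tmem173 and Myd88 did not pass (-0.34 and 0.26).

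Other interferon-induced genes, outside the 45, were counted separately. Of 40 listed, 36 had a row and 28 were tested after scaling, of which 10 rose and 1 fell in eCRS_Exo against eCRS, 23 rose in eCRS_Exo against control and 5 rose in eCRS against control. The shares of all genes higher in these comparisons were 13.4%, 12.3% and 5.77%. As deposited 25, 28 and 4 of 29 rose, against 63%, 84.3% and 3.01% of all genes. The median scaled change in eCRS_Exo against eCRS was 0.23. Among those that rose were Ly6e, a surface protein that restricts viral entry (0.57, adjusted p = 0.00517), and Pml, the organiser of nuclear bodies (0.45, adjusted p = 0.00439), along with the RNA editor Adar (0.48, adjusted p = 0.00878). The gene that fell was Ifitm2 (-0.33, adjusted p = 0.0397 scaled; 0.38 as deposited). Ifitm1 rose in eCRS against control by 1.83 after scaling.

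Cell type markers were read beside these results, since in bulk tissue fewer cells of a type and less RNA per cell cannot be told apart. As deposited, olfactory neuron, sustentacular and ciliated cell markers of nasal mucosa all reached 1 FPKM in some library. Of the 7 eosinophil markers, 6 were under 1 FPKM in every library as deposited. After scaling 1 of these 6, Prg2, reached 1.17 in eCRS library 2. The eosinophil markers summed to 1.41 to 1.88 scaled FPKM in eCRS_Exo libraries, 5.06 to 13.4 in eCRS libraries and 0.876 to 1.49 in control libraries. In eCRS libraries most of that was Ear2, an eosinophil-associated ribonuclease, at 1.07, 0.589 and 0.658 in eCRS_Exo libraries, 7.36, 11.9 and 3.79 in eCRS libraries and 0.808, 0.734 and 1.18 in control libraries. Ear2 was higher in every eCRS library than in any other, and on both scales it fell in eCRS_Exo against eCRS (-2.19, adjusted p = 0.00263 scaled) and rose in eCRS against control (2.08, adjusted p = 0.00256 scaled). It was the 1 eosinophil marker that was tested. Below the filter, Prg2 had 0.294, 0.286 and 0.362 in eCRS_Exo and 0.862, 1.17 and 0.739 in eCRS libraries. Siglecf did not follow Ear2, with 0.463, 0.398 and 0.216 in eCRS_Exo and 0.182, 0.167 and 0.332 in eCRS libraries. The 13 monocyte and macrophage markers summed to 451 to 546 scaled FPKM in eCRS_Exo libraries, 341 to 536 in eCRS libraries and 260 to 337 in control libraries. Most of each sum was Lyz2, at 444, 355 and 455 in eCRS_Exo and 261, 442 and 412 in eCRS libraries. Mrc1 (1.12, 1.17 and 1.77 against 3.23, 3.98 and 3.60) and Ccr2 lay below every eCRS library in all eCRS_Exo libraries. Fcgr1 lay above (1.16, 1.41 and 1.16 against 0.462, 0.798 and 0.844), and reached 1 scaled FPKM in eCRS_Exo libraries only. Of the 12 tested after scaling, 1 rose and 2 fell in eCRS_Exo against eCRS, 9 rose and 1 fell in eCRS_Exo against control, and 5 rose in eCRS against control. As deposited 10 of 13 rose and 1 fell in eCRS_Exo against eCRS, against 63% and 0.73% of all genes, where the scaled shares of all genes were 13.4% and 16.2%. The scaled shares of all genes higher and lower were 12.3% and 15.6% in eCRS_Exo against control. In eCRS against control they were 5.77% and 4.15%. Neutrophil markers summed to 46.8 to 87.5 in eCRS_Exo, 61.7 to 102 in eCRS and 30.4 to 52.0 in control libraries, and T and NK cell markers to 3.96 to 5.53 in eCRS_Exo, 4.27 to 7.19 in eCRS and 2.31 to 3.89 in control libraries. Plasmacytoid dendritic cell markers, from a major source of type I interferon, summed to 1.50 to 2.26 in eCRS_Exo, 1.12 to 2.04 in eCRS and 0.741 to 3.62 in control libraries, and 0 of 4 passed the filter.

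Among non-immune markers, the 9 of olfactory neurons summed to 539 to 965 scaled FPKM in eCRS_Exo and 262 to 475 in eCRS libraries. In control libraries their sum was 616 to 760. After scaling 8 of 9 rose and 0 fell in eCRS_Exo against eCRS, against 13.4% and 16.2% of all genes. In eCRS against control 0 rose and 5 fell, against 5.77% and 4.15%. As deposited 9 of 9 rose in eCRS_Exo against eCRS, against 63%, and 0 fell in eCRS against control, against 0.518%. Gland and secretory markers summed to 45865 to 107558 in eCRS_Exo, 112679 to 210097 in eCRS and 209709 to 238349 in control libraries. Most of that was Obp1a, Obp2a, Bpifb9a and Bpifb9b. After scaling 0 of 6 tested passed in eCRS_Exo against eCRS, against 13.4% of all genes higher and 16.2% lower. In eCRS_Exo against control 1 rose and 4 fell, against 12.3% and 15.6%. As deposited 1 rose and 1 fell in eCRS_Exo against eCRS, against 63% and 0.73%. After scaling 3 of 5 fibroblast, 2 of 4 basal and 1 of 4 tested endothelial markers fell in eCRS_Exo against eCRS, and 0 rose. As deposited 0, 1 and 0 fell and 0, 1 and 0 rose. Of 5 sustentacular markers 1 rose after scaling, and 0 of 5 ciliated cell markers passed. No listed marker was at 0 in all libraries. The part of any of these cell types in the change of the members was not tested.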

How the data were processed

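Poly(A) RNA sequencing of mouse nasal mucosal tissue was available for 9 libraries, 3 each of eCRS_Exo, eCRS and control, grouped and numbered by their titles. The authors deposited FPKM values for 21930 Ensembl identifiers. Per the submitters' processing notes, the tools were fastp 0.19.4, HISAT2 and StringTie and the build was mm10. The sources used here do not give the annotation, the strand setting or how reads shared by paralogs were counted. FPKM is relative to all fragments of a library, so abundant genes move every other value. Symbols and coordinates came from GENCODE M21 (21817 identifiers matched, 113 did not).

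Members and gene lists were chosen with earlier results of these data known, and no list or test here is independent of that choice. The test was limma 3.58.1 (R 4.3.3) on log2(FPKM + 1), fitted once over all 9 libraries with trended variances, on genes of at least 1 FPKM in at least 3 libraries (12738 as deposited, 12507 scaled), and Benjamini-Hochberg adjustment over all of them. Scaling used median-of-ratios size factors from the 16486 genes detected in every library. On simulated data limma recovered 74 of 100 genes changed 2-fold among 12738 in eCRS_Exo against eCRS (65 in eCRS against control, 61 in eCRS_Exo against control), 98 to 100 of 100 changed 4-fold, and called 7 to 9 unchanged genes. The changed genes were drawn only above a set mean level, and changes were added on the log2(FPKM + 1) scale. Noise was normal and independent, and the libraries had no difference in scale. The recovery therefore does not hold for low members or for the scale shift of the deposited values.

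Rough depths came from the lowest values of 4394 single-transcript genes. Low values came within 0.05 of a whole number of fragments in 13.3% to 22.0% of cases, against 10% if evenly spread, so whole reads were not recovered and no count test was run. Within a group, libraries resembled each other at a Spearman rho of 0.979 to 0.988, and none was a copy of another. Members named with values were up to 3 of smallest p in each role, those called in eCRS against control, and those under the filter (29 in all). Ifit2 and Ifi27l2a and some further members were added after their values were seen. Alternatives were a pseudocount of 0.1, no filter or one at 5 FPKM, fits of 2 groups, a replicate block and no trend. Further ones were an absolute log2 change of at least 1 and each library left out. Quantile normalization was applied to the deposited values and set beside the scaled results. Rescaling to TPM also used the deposited values. Transcript words of 50 bases shared with other genes, exon overlaps and promoter motifs were computed from GENCODE M21 and RefSeq. 1 result of the pathway lists is not reported here. Figures were drawn with matplotlib 3.10.9.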

Additional observations from a re-analysis of the deposited data

How the results depend on the processing

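No called change of a member was reversed in any alternative run. As deposited, the 6 members higher in eCRS against control became 12 with a pseudocount of 0.1, 2 with no filter, 22 with the 2 groups alone, 2 at an absolute log2 change of 1 and 3 after rescaling to TPM. The 41 higher in eCRS_Exo against eCRS became 20 of 21 tested at a filter of 5 FPKM and 19 at a log2 change of 1, and the 42 against control became 21 of 21. After scaling, the 13 in eCRS against control became 7 of 20 tested at 5 FPKM and 1 at a log2 change of 1, the 19 in eCRS_Exo against eCRS became 12 of 20 and 3, and the 36 against control became 17 of 20 and 10. With 1 library left out the counts ran from 2 to 22, 34 to 41 and 38 to 43 as deposited (eCRS against control, eCRS_Exo against eCRS, eCRS_Exo against control) and 5 to 17, 9 to 23 and 30 to 37 scaled. The 0 members lower in eCRS_Exo against eCRS scaled became 0 to 1 (Ifi27l2a). The cause was not tested, except that a stricter filter or fold threshold leaves fewer members by construction. Replicate numbers gave no sign of pairing (correlations of same-numbered libraries from -0.34 to 0.14, not every library best with its own number), and a replicate block gave 8, 41 and 42 members higher as deposited and 16, 22 and 36 scaled. Low members such as Oas3, Oasl1 and Rsad2 are limited by depth and by the pseudocount.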
